A study of Mus musculus with 8 samples.

Results

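The comparison set 2 injections side by side: mouse embryos given mRNA for Snrpb against embryos given mRNA for Snrpd2, at the 1-cell stage and at the 2-cell stage. It used 4 of the 8 libraries of the series, paired by stage, and the read counts of the 13792 genes of 21553 that had 50 or more reads in at least 1 of the 4. The injected genes were left out of those 13792. All embryos came from B6CBA F1 crosses, were injected at the 1-cell stage and were lysed 5 h (1-cell) or 24 h (2-cell) later. The other 4 libraries came from embryos given mCherry mRNA, which encodes a fluorescent protein, or both Sm mRNAs, and are quoted only as reference levels. Each condition was 1 library made from 40 embryos pooled over 3 independent experiments, so the spread between embryos or pools of one condition is not seen. The files give totals per gene, and splicing itself was not analysed here.

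Snrpb encodes the SmB/B' proteins and Snrpd2 encodes SmD2, both members of the set of Sm proteins that close into a ring around the U1, U2, U4 and U5 small nuclear RNAs. SmD2 enters the ring with SmD1 as a preformed pair, whereas SmB/B' enters with SmD3. The ring marks a small nuclear RNA for import and stable assembly into the spliceosome, and the series title ties a splicing failure at genome activation to a dampened response to DNA damage.

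The libraries held 59979046 (Snrpb) and 54149817 (Snrpd2) counted reads at the 1-cell stage, and 40558073 and 44648717 at the 2-cell stage. The injected mRNAs were where the labels put them. Snrpb had 2924694 reads in the 1-cell Snrpb library against 367 in the 1-cell Snrpd2 library, and 76854 against 1300 at the 2-cell stage. Snrpd2 had 248504 reads in the 1-cell Snrpd2 library against 13 in the 1-cell Snrpb library, and 59894 against 54 at the 2-cell stage. Snrpb mRNA alone took 4.88% of all reads of its 1-cell library, and Snrpd2 mRNA 0.459% of its own. These shares do not allow for gene length. By the authors' cRPKM, a value scaled to length and library total, Snrpb stood at 43849.91 and Snrpd2 at 17926.25 in their own 1-cell libraries. At the 2-cell stage the order was reversed, at 1704.01 and 5239.86. The level of injected message thus differed between the libraries as well as the protein encoded. The embryos carried the zona pellucida, oocyte secreted factor and maternal mRNAs that name these cells: all 10 oocyte and zygote markers passed the read minimum. Across all genes, log2 reads of the 2 libraries of a stage correlated at 0.985 (1-cell) and 0.974 (2-cell).

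Over both stages together, 5 genes differed. In edgeR's quasi-likelihood test with stage as a block and Benjamini-Hochberg adjustment over the 13792 genes, Ctsk and Mmp9 were higher with Snrpb (2 genes, 0.0145% of those tested) and 3 genes were lower (0.0218%), Pcdh8 and Akr1c18 among them. At an unadjusted p under 0.05 there were 239 genes, or 1.73%. The model has 1 residual degree of freedom, and edgeR estimated infinite prior degrees of freedom. The error of each gene was therefore the dispersion shared over all genes, neither that gene's own disagreement between the 2 stages nor a spread between replicate pools, so a gene that differed at 1 stage only could be called. The adjusted p of Ctsk, Mmp9 and Akr1c18 is to be read with this limit. When all 8 libraries were fitted, and when DESeq2 was used on the same 4, no gene was called (203 and 70 genes at an unadjusted p under 0.05).

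Pcdh8, a protocadherin of the cell surface, was the only called gene at least 2-fold apart at both stages with both counting intervals beyond no change. It had 15 reads in the Snrpb library against 50 in the Snrpd2 library at the 1-cell stage, and 632 against 2171 at the 2-cell stage. The mCherry libraries had 10 and 1072 reads and the libraries given both mRNAs 8 and 727, so the 2 Snrpd2 libraries were the high ones at each stage. After scaling by the trimmed mean of M-values (TMM), Pcdh8 was 3.53-fold lower with Snrpb at the 1-cell stage (95% interval 1.95 to 6.76) and 2.97-fold lower at the 2-cell stage (2.72 to 3.25). The paired log2 fold change was -1.65 (SE 0.32, edgeR adjusted p = 0.00203). Pcdh8 was also called with edgeR's robust dispersion.

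Akr1c18, which encodes 20-alpha-hydroxysteroid dehydrogenase, a progesterone-degrading enzyme of the corpus luteum, had 1412 against 1605 reads at the 1-cell stage and 0 against 87 at the 2-cell stage. Its 2-cell ratio was at least 25.1-fold lower with Snrpb, but the 2-cell mCherry library also had 0 reads and the combined library had 27, so the Snrpd2 library was the highest and the combined one lay between it and the 2 at 0. Its paired log2 fold change was -1.48 (SE 0.34, edgeR adjusted p = 0.03). Akr1c18 was not called with robust dispersion.

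Ctsk (cathepsin K, a collagen-degrading protease of osteoclasts) and Mmp9 (matrix metalloproteinase 9, also secreted by osteoclasts and leukocytes) were called on the 1-cell stage alone. Ctsk had 1321 reads in the 1-cell Snrpb library, against 4 with Snrpd2, 0 with mCherry and 4 with both mRNAs, and 18 against 20 at the 2-cell stage. Mmp9 had 435 reads in the 1-cell Snrpb library, against 20 with Snrpd2, 36 with mCherry and 20 with both, and 325 against 291 at the 2-cell stage. In both genes the 1-cell Snrpb library stood alone above 3 others that lay close together, and the 2-cell libraries of the 2 injections were level or nearly so. The 1-cell ratios were 312-fold (122 to 1150) for Ctsk and 20.6-fold (13.1 to 34.0) for Mmp9, and the paired log2 fold changes were 4.15 (SE 0.55, edgeR adjusted p = 4.23e-10) and 2.13 (SE 0.42, edgeR adjusted p = 0.00205). Neither was called with robust dispersion.

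**Figure D1:**
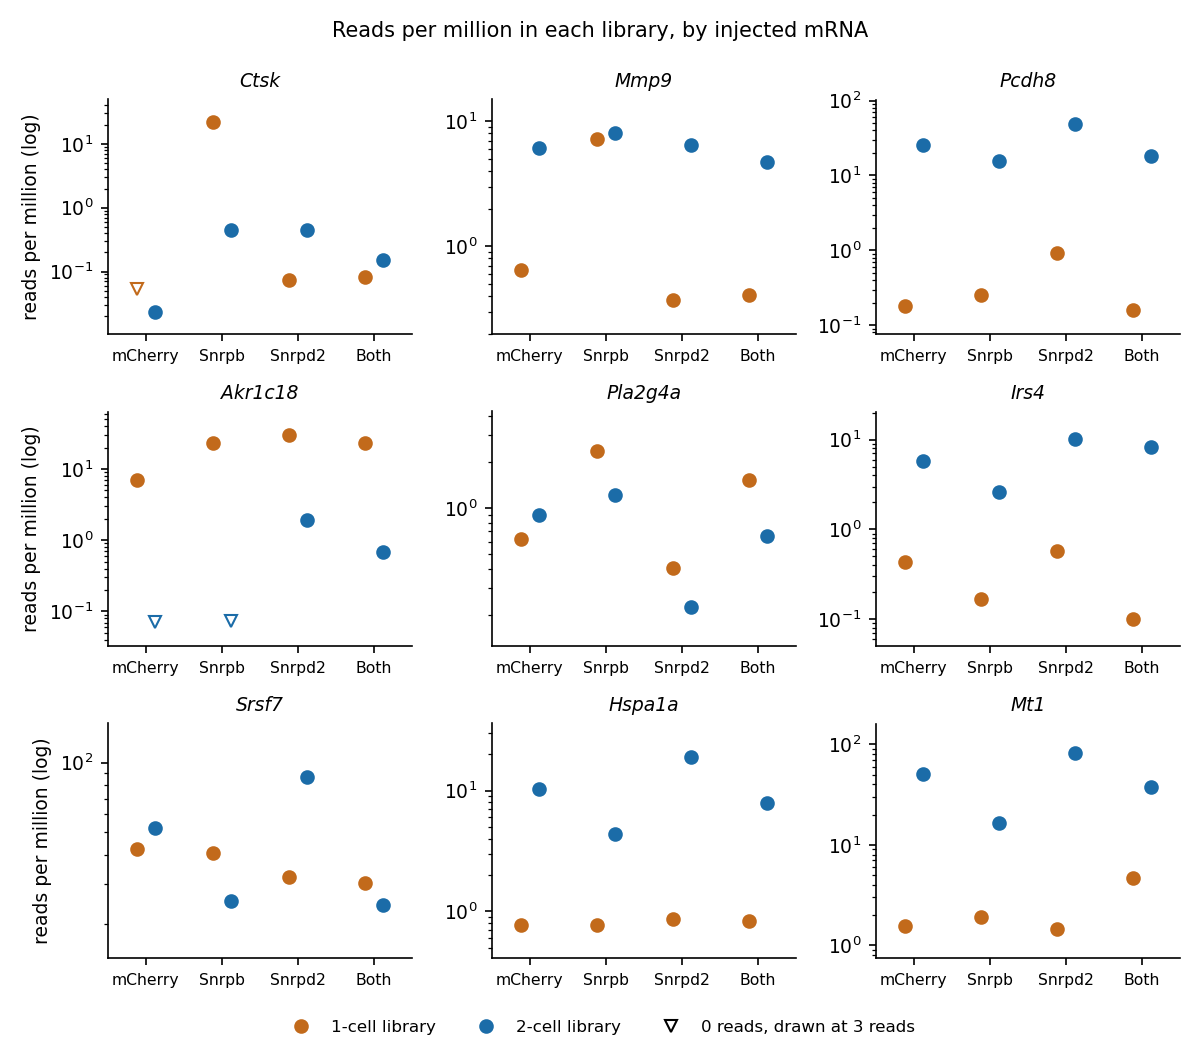
CPM, the reads of a gene scaled to the library total (log axis), of 9 genes in the 8 libraries, by injected mRNA (horizontal axis) and stage (colour), with 1 library per point; open triangles stand for 0 reads and are drawn at 3 reads. Pcdh8 and Irs4 lie lower with Snrpb than with Snrpd2 at both stages and Pla2g4a higher, whereas Ctsk and Mmp9 are high only in the 1-cell Snrpb library among the 1-cell libraries.

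Few genes differed the same way in the libraries of both stages. At least 2-fold apart in the same direction at both stages, with both intervals beyond no change, were 33 genes higher with Snrpb (0.239%) and 29 lower (0.21%). The 33 were 7.75% of the genes higher at the 1-cell stage, where 2.94% of all genes were higher at the 2-cell stage, and 8.15% of those higher at the 2-cell stage, where 3.09% of all were higher at the 1-cell stage. The 29 were 12.9% of the genes lower at the 1-cell stage, beside 3.67% of all genes lower at the 2-cell stage, and 5.73% of those lower at the 2-cell stage, beside 1.63% at the 1-cell stage. Most were sparse: in 19 of the 33 and 24 of the 29, both 1-cell libraries had under 50 reads.

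Among the genes higher with Snrpb at both stages, none was called. Pla2g4a, the cytosolic phospholipase A2 that releases arachidonic acid from membranes, had 142 reads against 22 at the 1-cell stage and 49 against 10 at the 2-cell stage. Both Snrpb libraries lay above mCherry (35 and 38 reads) and both Snrpd2 libraries below it, with ratios of 6.10-fold (3.88 to 10) and 5.66-fold (2.83 to 12.5) and an edgeR adjusted p of 0.311. Parp3, a poly(ADP-ribose) polymerase that acts in double-strand break repair, had 28 against 2 reads and 63 against 16, or 13.2-fold (3.34 to 115) and 4.55-fold (2.60 to 8.44) more with Snrpb. Smo, the transducer of Hedgehog signalling, had 55 against 13 and 15 against 1 reads. Slc46a1, the proton-coupled folate transporter, had 27 against 6 and 133 against 51 reads. The other 8 genes that the ranking named were Zfp112, Arhgap31, Sept9, Kif1a, Prss46, Klhl23, Kcnab2 and Wipf1, and the lowest ratio among all 12 was 2.35-fold (Wipf1, 2-cell stage). Axl, a receptor tyrosine kinase, lay outside that ranking and is named after its values were seen: it was the best measured of the 33 at the 1-cell stage, with 407 reads against 169, and 98 against 25 at the 2-cell stage.

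Among the genes lower with Snrpb at both stages, Irs4, an insulin receptor substrate, had 10 reads against 31 and 106 against 455. In both stages the Snrpb library lay below mCherry (24 and 247 reads) and the Snrpd2 library above it, with ratios of 3.28-fold (1.57 to 7.5) and 3.71-fold (3 to 4.63) and an edgeR adjusted p of 0.272. Dzip1l, a protein of the ciliary transition zone, had 6 against 29 and 3 against 53 reads. Lrat, which stores retinol as esters, had 0 against 6 and 20 against 64 reads. Tapbpl, Pgbd1, Cpxm1, Nap1l2, Dcaf12l1, Slc22a21, Wnk4 and Dscaml1 completed the ranking, with ratios between 2.25-fold (Dscaml1, 2-cell stage) and 4.41-fold (Pgbd1, 1-cell stage). Sox17, the endoderm transcription factor and the lineage list's largest difference, had 19 against 39 and 563 against 1538 reads, where mCherry had 25 and 699. It was lower with Snrpb by 2.17-fold (1.23 to 3.98) and by 2.36-fold (2.14 to 2.61), with a paired log2 fold change of -1.20 (SE 0.33, edgeR adjusted p = 0.312).

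At the 1-cell stage, 5 h after injection, 426 genes were at least 2-fold higher with Snrpb with an interval beyond no change (3.09%) and 225 were lower (1.63%). With 1 library on each side these counts describe the libraries and carry no test. Without the fold minimum, 3964 genes (28.7%) were higher and 3480 (25.2%) lower by their intervals, which cover counting error only. The 6 genes farthest above no change were Ctsk, Tm4sf19, Pltp, Mmp9, Cyth4 and Fxyd5. Tm4sf19, a tetraspanin-like protein of osteoclasts, had 72 reads against 0, with 0 in both the mCherry and the combined library. With 0 taken as 3 reads this is 22.7-fold, and the interval began at 18-fold. Cyth4, an ARF exchange factor of blood cells, had 52 against 0 reads, or 16.4-fold on the same footing (interval from 12.9). Pltp, the phospholipid transfer protein, had 54 against 0 and Fxyd5, a regulator of the sodium pump, 56 against 1. Among the 6 farthest below were Lrrn1, Ift172, Pxdn, Ppp1r3a and Rassf2. Ift172, a subunit of the intraflagellar transport complex of cilia, had 9 against 96 reads, with 55 in the mCherry library, and was 11.3-fold lower (5.71 to 25.4). Lrrn1, Pxdn, Ppp1r3a and Rassf2 had 0 reads with Snrpb and 16 (Rassf2) to 22 (Lrrn1) with Snrpd2.

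At the 2-cell stage, 405 genes were at least 2-fold higher with Snrpb (2.94%) and 506 lower (3.67%), and the intervals alone put 4610 (33.4%) higher and 4612 (33.4%) lower. The 6 genes farthest below no change were Hsd3b1, Akr1c18, Ripk3, Cyp11a1, Ube2ql1 and Mcrip1. Hsd3b1, 3-beta-hydroxysteroid dehydrogenase of steroid synthesis, had 10 reads with Snrpb and 466 with Snrpd2, a 40.3-fold difference (21.7 to 84.6). Cyp11a1, the enzyme that cleaves the cholesterol side chain, had 15 against 296, or 17.1-fold (10.2 to 30.9). In the mCherry library they had 8 and 19 reads and in the combined library 5 and 12, so the 2-cell Snrpd2 library stood alone above 3 that lay together. Ripk3, the kinase of necroptosis, had 0 against 53 reads, with 18 in mCherry. It was 15.3-fold lower with 0 taken as 3 reads (interval from 12). Ube2ql1 had 5 against 108 and Mcrip1 0 against 34 reads. The higher side was led by Zfp112 (55 against 0 reads), Chst4 (26 against 0), Cfap54 (58 against 3), Fshr (33 against 1), ENSMUSG00000074873 (51 against 3) and Gtf2ird2 (40 against 2). Fshr, the receptor for follicle-stimulating hormone, had 53 reads in the 2-cell mCherry library, so its Snrpd2 library was the low one.

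The 2 stages did not order the genes alike. Of genes past the 2-fold and interval criterion at both stages, 56 were higher with Snrpb at the 1-cell stage and lower at the 2-cell stage (0.406%), and 26 were lower and then higher (0.189%), beside the 33 and 29 that kept their direction. Across the 10847 genes with 100 or more reads at each stage, the log2 ratio at the 1-cell stage and that at the 2-cell stage had a Spearman rho of -0.34. Across the 4642 genes with 2000 or more reads, where counting error is small, it was -0.53. Genes are not independent replicates, and all points of a stage share the same 2 libraries, their depth and their preparation. No library enters both stages. The standard deviation of the log2 ratio over the 4642 genes was 0.22 at the 1-cell stage and 0.31 at the 2-cell stage, so most of the opposite ordering lay within small ratios.

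**Figure D2:**
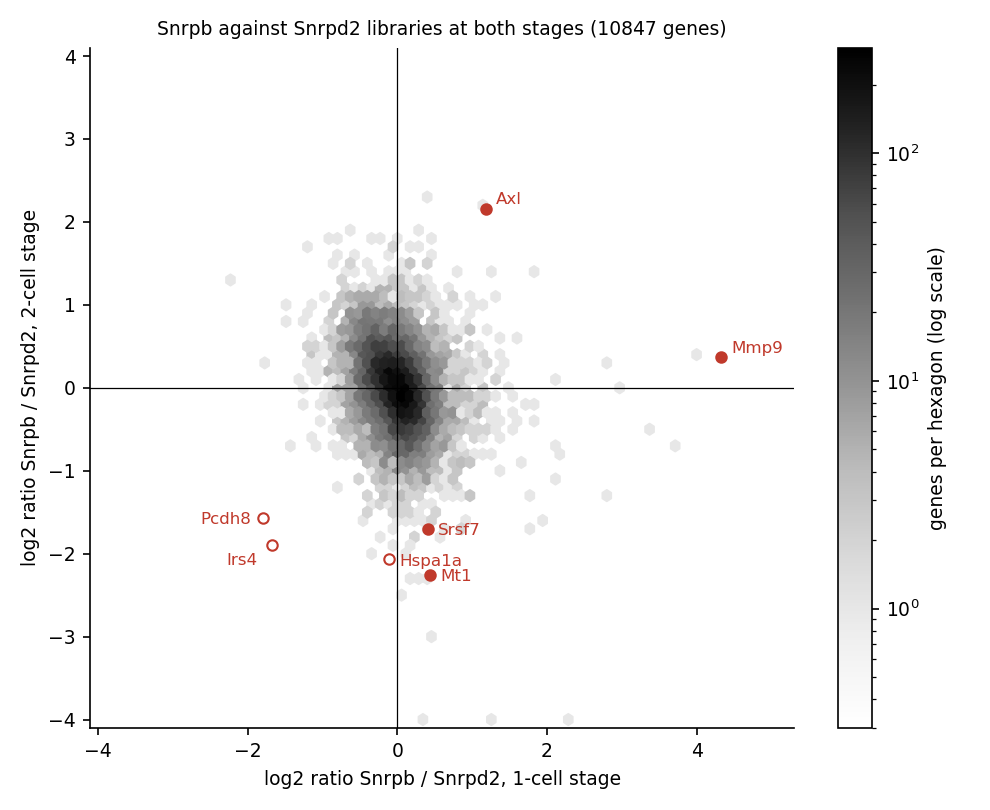
Log2 ratio of Snrpb to Snrpd2 at the 1-cell stage (horizontal) and at the 2-cell stage (vertical) for 10847 genes, binned in hexagons shaded by gene number on a log scale; 4 genes beyond 4 on an axis are drawn at 4. Filled red points are named genes, open ones have under 100 reads at the 1-cell stage; the cloud leans from upper left to lower right, and Axl, Pcdh8 and Irs4 lie in the 2 corners of equal direction.

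The tilt went with gene length. The length implied by the authors' cRPKM values had a rho with the log2 ratio of -0.36 at the 1-cell stage and 0.43 at the 2-cell stage over the 10847 genes. In the shortest of 8 bins of equal size (up to 1197 bases) the median log2 ratio was 0.110 at the 1-cell stage and -0.234 at the 2-cell stage. In the longest bin (5675 bases and over) it was -0.202 and 0.292. Thus 70.1% of the shortest genes were higher with Snrpb at the 1-cell stage and 21.4% at the 2-cell stage, against 25.2% and 78.9% of the longest. Against the mean of the 4 libraries of a stage, the shortest bin minus the longest was 0.10 in the 1-cell Snrpb library and -0.21 in the 1-cell Snrpd2 library, and -0.25 and 0.28 at the 2-cell stage. The mCherry libraries stood at 0.29 and 0.12 and the combined ones at -0.18 and -0.14, so libraries of every injection differed in this measure and the order of Snrpb and Snrpd2 was opposite at the 2 stages. With the length trend taken out at each stage, the rho between stages was -0.23 (10847 genes) and -0.37 (4642 genes). Whether RNA integrity or library preparation moved with length was not tested.

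**Figure D3:**
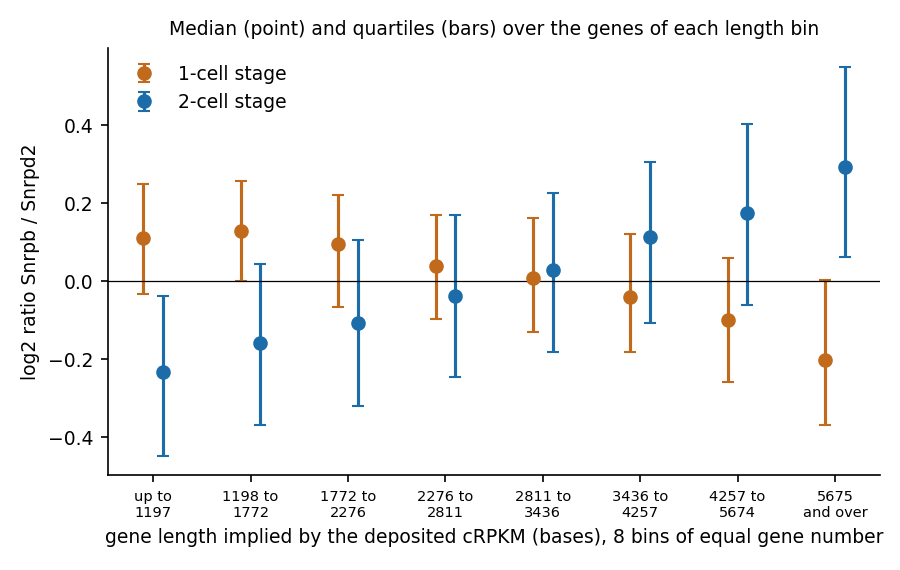
Log2 ratio of Snrpb to Snrpd2 by gene length in bases, as the median (point) and quartiles (bars) of 8 bins, at the 1-cell stage and the 2-cell stage. The medians go from 0.110 to -0.202 with length at the 1-cell stage and from -0.234 to 0.292 at the 2-cell stage.

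Single genes reversed in both senses between the stages, and the 5 ranked first in each are given. Pltp had 54 against 0 reads at the 1-cell stage and 11 against 128 at the 2-cell stage, and Hsd3b1 181 against 35 and then 10 against 466. Stard8 (20 against 0, then 5 against 57), Lgals3bp (83 against 9, then 1 against 48) and Mkx (63 against 11, then 0 against 34) went the same way. In the other direction, Wnt1, a secreted signalling protein, had 0 against 8 reads and then 103 against 29, and Plg, plasminogen, 18 against 59 and then 44 against 4. Cfap54 (0 against 11, then 58 against 3), Ppp1r3a (0 against 20, then 54 against 5) and Lurap1 (5 against 22, then 81 against 25) did likewise.

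Messages of the splicing machinery were compared through lists, each set beside all genes, for which the median log2 ratio was 0.02 at the 1-cell stage and -0.00 at the 2-cell stage. Of all genes, 47.2% were lower with Snrpb at the 1-cell stage and 50.3% at the 2-cell stage. Medians of 0.05 or smaller in size took the other sign in some lists under library totals or DESeq2 size factors and are read as level. No member of a splicing list was called in the paired model. The remaining Sm core genes were lower with Snrpb at the 2-cell stage: the median of the 5 measured was -0.41, all 5 were below 0, and their intervals all lay beyond no change. They were Snrpd3 (891 against 1406 reads), Snrpf (976 against 1533), Snrpe (3609 against 5553), Snrpg (6955 against 10633) and Snrpd1 (1481 against 2093). With the length trend removed the median was -0.13, as these are short genes. At the 1-cell stage the median was -0.23, but 2 of the 5, Snrpd1 (6178 against 5546 reads) and Snrpd3 (4352 against 3936), were higher with Snrpb and 3 lower, all with intervals beyond no change. Of the lower ones, Snrpg, whose protein joins the ring with SmE and SmF, had 1528 reads with Snrpb and 2359 with Snrpd2, with 833 in mCherry and 1440 with both. Its paired log2 fold change was -0.55 (SE 0.23, edgeR adjusted p = 1). Of the 36 proteins specific to the U1, U2, U4/U6 and U5 particles, 25 were lower with Snrpb at the 2-cell stage (median -0.23) and 18 at the 1-cell stage (median -0.00). Prpf3 of the tri-snRNP had 489 against 1078 reads at the 2-cell stage, and Prpf8, the large U5 protein at the heart of the spliceosome, lay on the other side with 923 against 621. The SMN and PRMT5 assembly genes were balanced, with 9 of 18 higher at the 2-cell stage, and Gemin2 was their largest difference (70 against 36 reads, then 161 against 115). The LSm genes had medians of 0.07 and -0.13 over 8 members (-0.01 and 0.01 with the length trend removed), with Lsm4 at 146 against 100 and 186 against 219 reads, and the minor spliceosome genes 0.11 and -0.07 over 11, with Snrnp25 at 88 against 73 and 215 against 477.

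Splicing regulators differed by stage, beside 47.2% of all genes lower with Snrpb at the 1-cell stage and 50.3% at the 2-cell stage. The SR protein list (serine- and arginine-rich activators of exon use, with their kinases) had 15 of 20 members lower with Snrpb at the 2-cell stage (median -0.18) and 8 of 20 at the 1-cell stage (median 0.01). Srsf7 stood apart: it had 2441 reads with Snrpb against 1738 with Snrpd2 at the 1-cell stage, and 1027 against 3869 at the 2-cell stage. The mCherry libraries had 2359 and 2229 reads and the combined ones 1489 and 961, so at the 2-cell stage the Snrpd2 library was above and the Snrpb and combined libraries below the control. Its 2-cell ratio was 3.26-fold lower with Snrpb (3.04 to 3.49), and its paired log2 fold change was -0.65 (SE 0.27, edgeR adjusted p = 1). The hnRNP proteins, which bind nascent RNA and often oppose SR proteins, had 21 of 30 members lower with Snrpb at the 1-cell stage (median -0.27, and -0.28 with the length trend removed) and 11 of 30 at the 2-cell stage (median 0.08). Hnrnph1 was lower at both, with 1584 against 2353 and 897 against 1382 reads (edgeR adjusted p = 1). The nonsense-mediated decay and exon junction list, which clears transcripts with premature stop codons, had 15 of 20 members lower at the 1-cell stage (median -0.12) and 10 of 20 at the 2-cell stage (median -0.00). Casc3 of the exon junction complex had 256 against 592 reads at the 2-cell stage, and Smg1, the kinase that phosphorylates UPF1, had 1098 against 797.

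Damage signalling genes lay mostly higher with Snrpb at the 2-cell stage. Of 36 damage signalling genes, 27 were higher with Snrpb (median 0.20) and 9 lower, where 50.3% of all genes were lower. At the 1-cell stage 13 were higher and 23 lower (median -0.07), where 47.2% of all genes were lower. Atr, the replication stress kinase, had 811 reads against 445 at the 2-cell stage, with 447 in mCherry, so the Snrpb library was the high one (2.11-fold, 1.87 to 2.37). It had 1015 against 1185 at the 1-cell stage. Atrip, its partner, had 327 against 259 and 348 against 266, and a paired log2 fold change of 0.43 (SE 0.34, edgeR adjusted p = 1). The Werner helicase Wrn had 5259 against 3252 at the 2-cell stage, and the signal was not uniform: Cdc25c, the phosphatase that starts mitosis, had 817 against 1784. Chek1, which encodes the kinase below ATR, was nearly level, with 73864 against 65568 and 17335 against 18748 reads (1.06-fold and 1.07-fold higher after scaling). Damage signalling genes are long, with a median length of 3390 bases, and their 2-cell median was 0.10 with the length trend removed. Of all genes of 2811 to 3436 bases, 54.1% were higher with Snrpb at the 2-cell stage, and of those of 3436 to 4257 bases 63.7%.

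In the p53 target list 21 of 35 measured genes were lower with Snrpb at the 2-cell stage, beside 50.3% of all genes. Of the 21, 3 were at least 2-fold lower, beside 3.67% of all genes. Of these 3, Eda2r passed the read minimum only through the 2-cell Snrpd2 library, so the filter favoured its direction there. The median of the list was -0.19 (-0.22 with the length trend removed). Its 95% interval over the members, -0.54 to 0.11, spans no change, so the list is read as mixed. In the 1-cell libraries 22 were higher (median 0.11), where 47.2% of all genes were lower. Cdkn1a, the p21 inhibitor of cyclin-dependent kinases, had 1521 reads against 3158 at the 2-cell stage, with 1988 in mCherry and 1586 with both, which put it 1.80-fold lower (1.69 to 1.91). Gadd45g had 52 against 206 and Plk3 1037 against 2277. Eda2r, the largest paired difference of the list, had 0 reads in both 1-cell libraries and 26 against 64 at the 2-cell stage. Pidd1, which nucleates a caspase-2 complex, opposed them with 455 against 171, and was 3.08-fold higher with Snrpb (2.57 to 3.69). Trp53 itself had 5177 against 4645 and 1212 against 1267 reads (1.05-fold and 1.11-fold higher after scaling). No p53 target was called in the paired model. The repair lists were close to all genes: homologous recombination and Fanconi genes had medians of 0.05 and 0.11 over 39 members, and end joining, excision and mismatch repair genes 0.05 and 0.04 over 48. Within them Fancf had 108 against 353 reads at the 2-cell stage. Apoptosis genes had medians of 0.05 and 0.03 over 34 members, and cell cycle regulators 0.03 and -0.05 over 52, with Ccnd2 (cyclin D2) at 24 against 57 reads at the 1-cell stage.

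**Figure D4:**
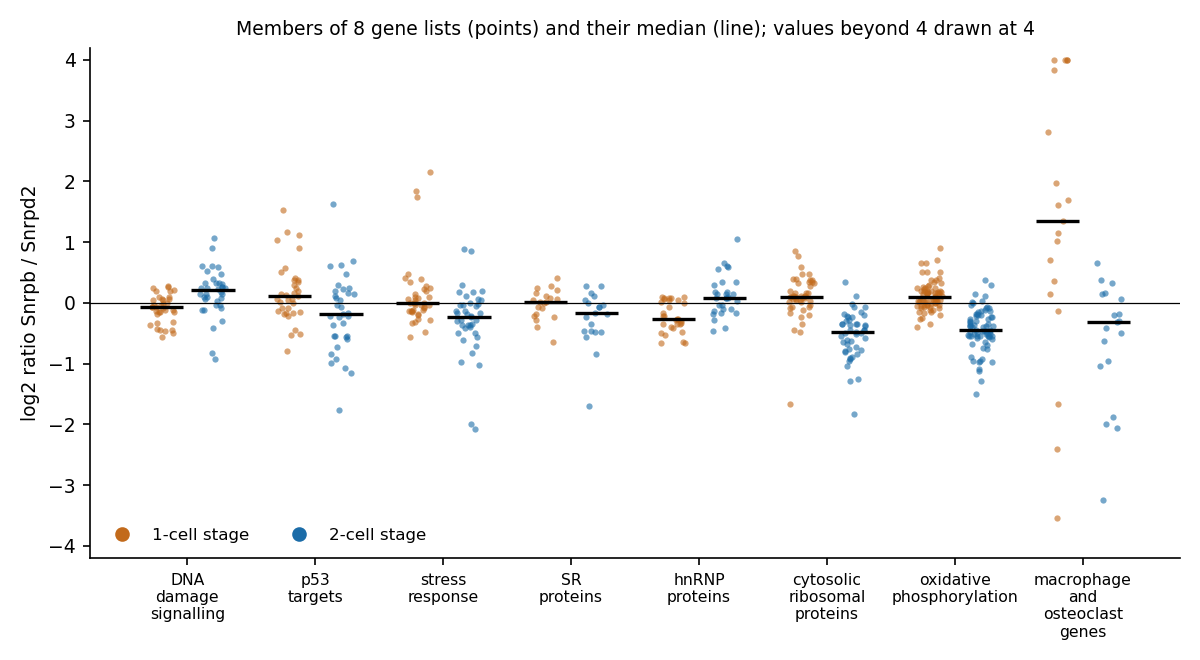
Log2 ratio of Snrpb to Snrpd2 (vertical) for every measured member of 8 gene lists (points) with the median (line), at the 1-cell stage and the 2-cell stage. Damage signalling and hnRNP genes lie mostly below 0 at the 1-cell stage and above it at the 2-cell stage, and ribosomal protein and oxidative phosphorylation genes the reverse.

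Stress response genes lay mostly lower with Snrpb at the 2-cell stage. Of 40 such genes, 31 were lower (median -0.23, and -0.16 with the length trend removed), beside 50.3% of all genes. At the 1-cell stage 22 were lower (median -0.01), beside 47.2% of all genes. The heat shock chaperone genes Hspa1a and Hspa1b, which are also among the first genes transcribed by the mouse embryo, had 176 against 854 and 65 against 300 reads at the 2-cell stage. mCherry had 434 and 157, so Snrpb libraries lay below and Snrpd2 libraries above the control, with ratios of 4.2-fold (3.56 to 4.97) and 3.99-fold (3.04 to 5.3). In the 1-cell libraries they had 46 against 47 and 99 against 117 reads, and the paired log2 fold change of Hspa1a was -1.21 (SE 0.39, edgeR adjusted p = 1). The 2 genes are near copies, so reads could be split between them by the counting. Atf3 had 503 against 1188, Asns, an amino acid stress gene, 116 against 264, and Hspa5, the chaperone of the endoplasmic reticulum, 8285 against 14592. Herpud1, also of the endoplasmic reticulum, was 4.53-fold higher at the 1-cell stage (115 against 24 reads) and level at the 2-cell stage (398 against 426).

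The metallothioneins, small zinc- and copper-binding proteins, showed the same order in a list drawn up after their values were seen. Mt1 had 665 reads with Snrpb, 3675 with Snrpd2, 2171 with mCherry and 1489 with both at the 2-cell stage, and Mt2 had 802, 2827, 1601 and 1346. The Snrpb library was the lowest and the Snrpd2 library the highest of 4 for each gene, and lower with Snrpb by 4.78-fold (4.4 to 5.2) for Mt1 and 3.05-fold (2.82 to 3.3) for Mt2. Earlier, in the 1-cell libraries, Mt1 had 114 against 79 and Mt2 41 against 30 reads, and the paired log2 fold change of Mt1 was -1.06 (SE 0.30, edgeR adjusted p = 0.398). Promoters of these genes, which differed together, are shown because their induction elements are well known: the metal response element and the heat shock element. The windows are the 250 bases before the RefSeq start on GRCm38.p6, not the mm9 build of the files, for Mt1 (chr8:94178839-94179088, strand +), Mt2 (chr8:94172368-94172617, strand +) and Hspa1a (chr17:34972157-34972406, strand -). Capitals mark matches, on either strand, to the metal response core TGCACNC or TGCGCNC in the first pair, and to the heat shock core GAANNTTC in the last.
Mt1: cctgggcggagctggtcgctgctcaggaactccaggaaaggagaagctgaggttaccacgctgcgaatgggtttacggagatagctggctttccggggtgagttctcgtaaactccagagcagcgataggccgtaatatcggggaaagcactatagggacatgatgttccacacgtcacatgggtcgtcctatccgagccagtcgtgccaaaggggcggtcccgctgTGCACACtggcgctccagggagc
Mt2: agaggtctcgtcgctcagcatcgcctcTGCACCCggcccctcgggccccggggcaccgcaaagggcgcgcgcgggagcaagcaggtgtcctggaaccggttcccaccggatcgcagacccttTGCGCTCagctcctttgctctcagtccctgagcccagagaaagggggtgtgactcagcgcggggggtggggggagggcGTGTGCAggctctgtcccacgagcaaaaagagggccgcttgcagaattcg
Hspa1a: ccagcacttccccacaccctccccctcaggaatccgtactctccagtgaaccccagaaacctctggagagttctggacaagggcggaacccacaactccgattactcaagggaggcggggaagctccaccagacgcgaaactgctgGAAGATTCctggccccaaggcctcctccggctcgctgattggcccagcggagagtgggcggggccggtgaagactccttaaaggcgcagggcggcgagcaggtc
The Mt1 window held 1 metal response core and the Mt2 window 3, against at least 1 in 21.4% of the 32851 RefSeq windows of this length. The Hspa1a window held 1 heat shock core, as did that of Hspa1b, from which it differed at 3 of 250 bases, and 6.69% of all windows held at least 1. The counts cover only the 250 bases before the start that RefSeq gives. Elements after that start, or near another start of the gene, are not counted, so 1 core for Mt1 is not the count of its whole promoter. A match describes letters in a window and is not evidence of binding.

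The immediate-early genes, transcription factors and signalling genes induced within minutes of a stimulus, were grouped after their values were seen. At the 2-cell stage 17 of 22 were lower with Snrpb (median -0.47), beside 50.3% of all genes. Of these, 8 were at least 2-fold lower, beside 3.67% of all genes. At the 1-cell stage 16 were higher (median 0.34). Because the list was picked on these values, the counts describe the list and support no direction. Arc had 297 against 1209 reads at the 2-cell stage, Ier5 511 against 1943 and Jun 711 against 2142, where mCherry had 886, 1230 and 1277. In each the mCherry level lay between the Snrpb and Snrpd2 levels. Fos (515 against 651) and Egr1 (2903 against 3176) were nearly level.

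Genes for the ribosome, the respiratory chain and the proteasome lay lower with Snrpb at the 2-cell stage, and slightly higher at the 1-cell stage unless the length trend was removed. Of 77 cytosolic ribosomal protein genes listed, 75 had a value and 47 passed the read minimum. Of the 47, 35 were slightly higher with Snrpb at the 1-cell stage (median 0.10), where 47.2% of all genes were lower. At the 2-cell stage 45 were lower (median -0.48), beside 50.3% of all genes. There 38 intervals lay below no change, beside 33.4% of all genes. Rps25 had 92 against 379 reads at the 2-cell stage and Rps20 116 against 319, with 150 and 224 in mCherry, and only Rpl7 (80 against 86) and Rpl15 (923 against 838) lay on the other side after scaling. Rps27a, the largest paired difference, had 0 against 1 and 37 against 82 reads. It was among 2 of the 47 that passed the read minimum only through the 2-cell Snrpd2 library, so the filter favoured their direction there. Summed over the 75 genes, the deposited cRPKM was 850 with Snrpb and 1300 with Snrpd2 at the 2-cell stage, 1020 with mCherry and 900 with both, so Snrpd2 was above and Snrpb below the control. Nuclear oxidative phosphorylation genes followed: 52 of 74 were higher at the 1-cell stage (median 0.09) and 68 lower at the 2-cell stage (median -0.44). Cyc1, cytochrome c1 of complex III, had 205 against 673 reads there, and 2.84-fold less with Snrpb (2.43 to 3.34). Of 31 proteasome genes, 26 were higher at the 1-cell stage (median 0.14) and 28 lower at the 2-cell stage (median -0.28), with Psmb5 at 236 against 455. These genes are short, with median lengths of 523, 843 and 1328 bases, and with the length trend removed the 2-cell medians were -0.23, -0.21 and -0.19 and the 1-cell medians 0.03, 0.02 and 0.05, which are level.

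The proteins encoded by the mitochondrial genome, a list added after values were seen, kept their direction. All 12 were lower with Snrpb at the 1-cell stage (median -0.46) and 11 at the 2-cell stage (median -0.34), beside 47.2% and 50.3% of all genes. mt-Nd3 had 1723 against 2316 reads and 1977 against 3979, with 2275 and 3945 in mCherry, so at both stages the Snrpb library was the lower one and Snrpd2 was close to the control. Its paired log2 fold change was -0.65 (SE 0.25, edgeR adjusted p = 1). With the length trend removed the medians were -0.57 and -0.07.

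**Figure D5:**
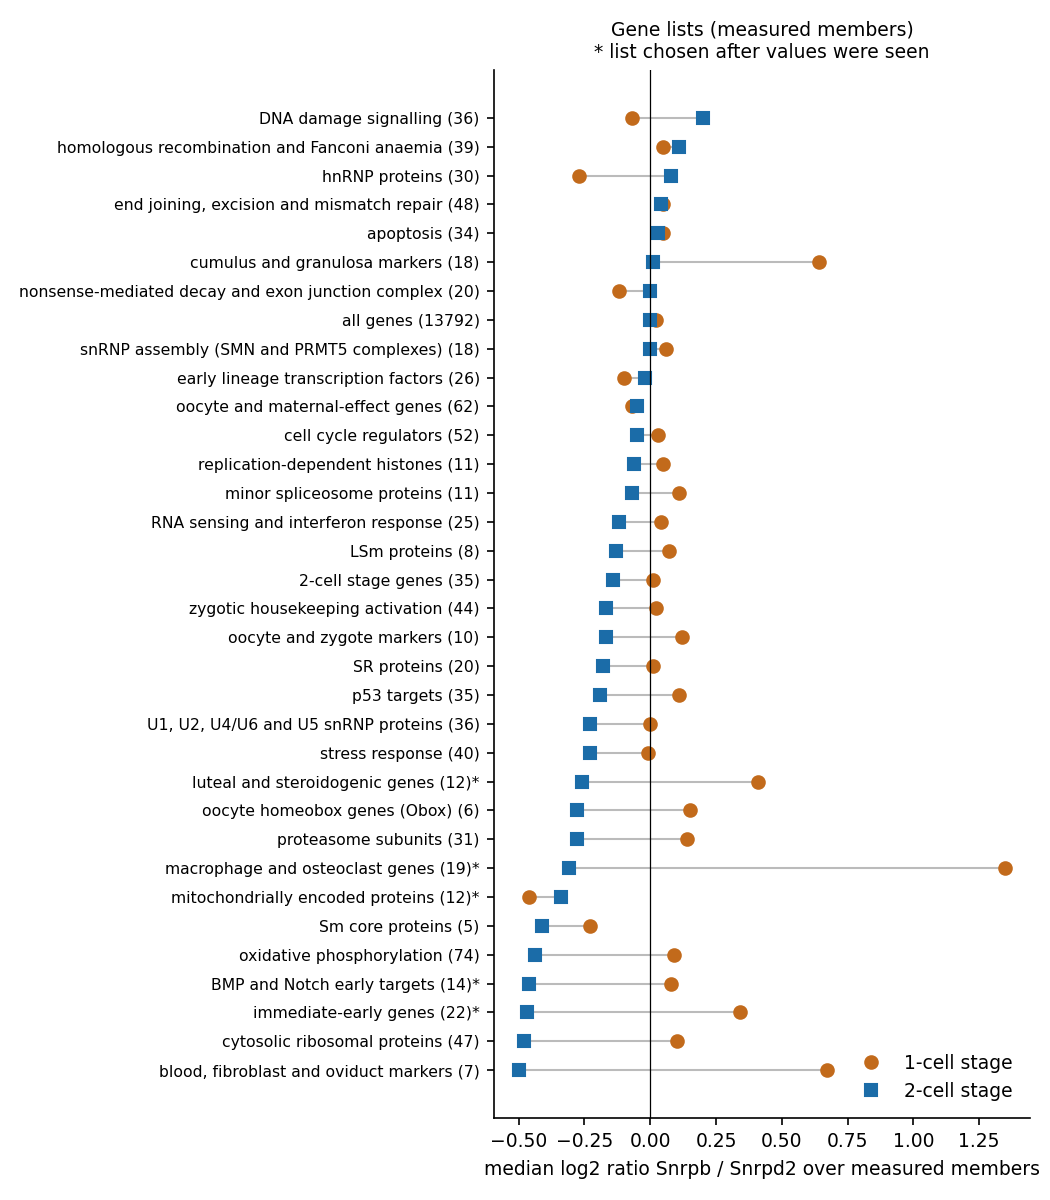
Median log2 ratio of Snrpb to Snrpd2 (horizontal) over the measured members of each gene list, at the 1-cell stage (circles) and the 2-cell stage (squares), ordered by the 2-cell value; lists of under 5 measured genes are not drawn. Ribosomal protein genes lie at 0.10 and -0.48 and damage signalling genes at -0.07 and 0.20, with all genes at 0.02 and -0.00.

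The switch from maternal to embryonic transcripts was compared through classes set in the mCherry libraries, which enter no ratio here. The 2773 genes that were at least 4-fold higher in 2-cell than in 1-cell mCherry embryos had median log2 ratios of -0.07 at the 1-cell stage and -0.04 at the 2-cell stage. Genes at least 4-fold lower (918) had 0.09 and -0.14, and the 10101 between had 0.02 and 0.01. At the 2-cell stage the cleared genes thus lay slightly lower with Snrpb and the activated ones were level, and with the length trend removed these 2-cell medians were 0.00, -0.08 and 0.01. Of 35 measured 2-cell stage genes, which mark the first wave of embryonic transcription, 22 were lower with Snrpb at the 2-cell stage (median -0.14, and -0.01 with the length trend removed). Of all genes, 50.3% were lower there, and 2 of the 35 passed the read minimum only through the 2-cell Snrpd2 library. Usp17lb had 893 against 2244 reads and Obox3 3287 against 5693, with 1295 and 3610 in mCherry, whereas Zfp54 had 1670 against 1286. Of 44 housekeeping genes known for zygotic activation, 32 were lower (median -0.17), and Hspa8 had 3235 against 7274. The 62 oocyte and maternal-effect genes had medians of -0.07 and -0.05, and Mos, the kinase that holds the egg in meiosis, was their largest paired difference, with 3944 against 1697 reads at the 1-cell stage and 135 against 190 at the 2-cell stage. The 6 Obox genes had medians of 0.15 and -0.28, and Obox6 had 2812 against 3410 reads at the 2-cell stage. The 26 lineage transcription factors had medians of -0.10 and -0.02, the 25 RNA sensing and interferon genes 0.04 and -0.12 (Mx1 126 against 69, then 17 against 4 reads), and the 11 replication-dependent histone genes 0.05 and -0.06 (Hist1h1b 5 against 8, then 49 against 103). Several Obox, Usp17 and histone genes have close copies, so their counts are uncertain.

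Markers of cells other than the embryo were compared as well. In a list of 26 macrophage and osteoclast genes, drawn up after their values were seen, 19 passed the read minimum. Of these, 15 were higher with Snrpb at the 1-cell stage (median 1.35), where 47.2% of all genes were lower. At least 2-fold higher were 12, beside 3.09% of all genes, and at least 2-fold lower were 0, beside 1.63%. At the 2-cell stage 13 were lower (median -0.31), beside 50.3% of all genes. Because the list was picked on these values, and 3 of the 19 passed the minimum only through the 1-cell Snrpb library, these counts describe the list and support no direction. Ctsk, Mmp9 and Tm4sf19 are members. Others were Acp5, the tartrate-resistant acid phosphatase of osteoclasts (653 against 277), Atp6v0d2 and Tcirg1, subunits of the proton pump (213 against 28 and 67 against 4), Ctss (55 against 1) and Spi1, the myeloid transcription factor PU.1 (40 against 12). The summed cRPKM of the list was 64.8 in the 1-cell Snrpb library, 31.5 with Snrpd2, 39.3 with mCherry and 33.3 with both. Ctsk alone gave 15.37 of the 64.8, against 0.05 with Snrpd2. Defining markers of macrophages were sparse: in the order Snrpb and Snrpd2 at the 1-cell stage, then the 2-cell stage, Adgre1 had 0, 1, 0 and 0 reads, Ptprc 6, 3, 0 and 15, and Csf1r 76, 18, 1 and 16. The part of such cells in the calls of Ctsk and Mmp9 was not tested, and in RNA from pooled embryos more cells of a type and more RNA per cell cannot be told apart.

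Cumulus and granulosa markers, of the cells that surround the egg, had 18 of 26 measured. At the 1-cell stage 13 were higher with Snrpb, 5 at least 2-fold (median 0.64, with 3 of the 18 past the read minimum only through the 1-cell Snrpb library). At the 2-cell stage 9 were higher and 9 lower (median 0.01, 4 at least 2-fold each way). Of all genes, 3.09% were at least 2-fold higher at the 1-cell stage, and 2.94% higher and 3.67% lower at the 2-cell stage. Ctsk is on this list too, as its called member. Cyp19a1, aromatase, was level at the 1-cell stage (2466 against 2469 reads) and had 326 against 477 at the 2-cell stage. Inhba had 42 against 8 at the 2-cell stage and Amhr2 153 against 544. The summed cRPKM was 57.6 with Snrpb, 37.5 with Snrpd2, 27.3 with mCherry and 55.2 with both at the 1-cell stage, and 30.8, 45.8, 29.7 and 33.0 at the 2-cell stage. Ctsk alone gave 15.37 of the 57.6, against 0.05 with Snrpd2 and 0.06 with both. The luteal list, added after values were seen, holds Akr1c18 as its called member and shares Hsd3b1, Cyp11a1 and Star with these markers. It had medians of 0.41 and -0.26 over 12 genes, and because it was picked on these values they support no direction. The 2-cell Snrpd2 library, where Akr1c18, Hsd3b1 and Cyp11a1 were high, had the highest sum of the 2-cell libraries for the granulosa list. Hsd3b1 and Cyp11a1 are members of that list, so the sum in part repeats their counts. Their 2-cell cRPKM was 6.99 and 3.84 with Snrpd2, against 0.17 and 0.21 with Snrpb. The part of granulosa or luteal cells was not tested. Of the blood, fibroblast and oviduct markers 7 of 16 were measured (medians 0.67 and -0.50), with Lyz2, lysozyme of myeloid cells, at 0 against 2 and 76 against 326 reads. Of 8 sperm markers 2 were measured, and Prm2, a protamine, had 101 against 121 and 64 against 90 reads.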

How the data were processed

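Whole-embryo polyadenylated RNA was sequenced from 8 libraries, of which 4 were compared. Per the labels' protocols, RNA was prepared with the RNeasy Micro kit, libraries with the SMARTer Stranded kit, and reads on a HiSeq2500. The submitters' processing notes name the build mm9. For the aligner, annotation, strand setting and multiply mapped reads nothing is given in the sources used here, so genes with close copies or overlaps are uncertain. The authors deposited a count of reads per gene and a value named cRPKM, an RPKM (reads per length and library total) whose correction is not described in the sources used here, for 22667 Ensembl identifiers. Of these, 1114 had no value and 21553 were used. Symbols came from GENCODE vM21 and promoters from RefSeq, both by gene name or identifier on GRCm38.

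Genes with 50 or more reads in at least 1 of the 4 libraries were kept, and Snrpb and Snrpd2 were left out before scaling. The paired test was edgeR 4.0.16 (TMM, quasi-likelihood, stage plus injection, 1 residual degree of freedom, common dispersion 0.0469) in R 4.3.3, called at an adjusted p under 0.05 over 13792 genes. The test returns no standard error. The SE printed beside a paired log2 fold change is its absolute value divided by the square root of the test's F statistic, and is approximate. The paired test was also run on simulated counts, in which changed genes shifted alike at both stages and all genes had the same dispersion. In these data the stages did not order the genes alike, so that run does not show how the test behaves here. Within a stage there was 1 library a group and no test: ratios of TMM-scaled counts carry exact conditional binomial 95% intervals, which cover counting error only, since PCR copies were not told apart by molecular identifiers. Against 0 reads a floor of 3 reads was used. The fold is then the one against that floor, and the interval can begin below it. Log2 ratios used a prior of 0.5 reads. DESeq2 1.42.0 and limma 3.58.1 gave alternatives. A length trend was removed by interpolating the medians of 20 length bins, an alternative added after the data were seen, as was the robust dispersion.

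The comparison, its members and the 29 gene lists were chosen with earlier results of these data known, and 6 further lists after values were seen. Genes were named by rule: the called genes, the 12 in each direction largest at both stages, the 6 in each direction at each stage with the farthest interval limit, the 5 in each opposite pattern, and the called or largest member of each list. Some genes that this rule names are not reported here. Other members are named as examples, chosen after their values were seen.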

Additional observations from a re-analysis of the deposited data

Results flagged for a closer look

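In 10 genes the 2 libraries of a stage lay at least 2-fold apart in opposite directions at the 2 stages, with all intervals beyond no change. With 1 library per condition the difference between stages was not tested. As the log2 ratio of Snrpb to Snrpd2 at the 1-cell stage minus that at the 2-cell stage, it was 9.96 for Pltp, 8.45 for Stard8, 8.28 for Mkx, 7.86 for Lgals3bp and 7.54 for Hsd3b1, which were higher with Snrpb first and lower later. It was -8.96 for Ppp1r3a, -8.88 for Cfap54, -6.19 for Wnt1, -5.28 for Plg and -4.0 for Lurap1, which were lower first and higher later. These 10 were taken by rank from 56 and 26 such genes, and several have 0 reads in 1 library, so their log2 values depend on the prior of 0.5 reads.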

How the results depend on the processing

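The paired calls (2 higher, 3 lower) were the same 5 genes with DESeq2 size factors, with library totals and with a minimum of 200 reads, and 4 of the 5 with a minimum of 10 reads or none, where Akr1c18 was lost. They came to 0 higher and 0 lower with DESeq2's Wald test, with all 8 libraries, with 6 libraries (no mCherry), with 7 (all but 1-cell mCherry) and with the length trend removed. Without stage as a block, which here pairs the libraries, no gene was called (0 higher, 0 lower, and 0 genes at an unadjusted p under 0.05). The labels give no replicate numbers. Robust dispersion gave 0 higher and 2 lower (Pcdh8 and 1 gene other than Akr1c18). limma on log2(cRPKM + 0.1) gave 6 higher and 3 lower, and with + 1, 3 higher and 11 lower, with 3 of the 5 genes called in each. Leaving out either stage leaves 1 library a group and no test. Counts at 1 stage kept within 1.5 times their size under the other scalings and with the length trend removed. With a minimum of 200 reads they were 176 higher and 78 lower (1-cell) and 120 and 205 (2-cell). At 1.5-fold they were 812 and 529, and 1327 and 1415, and at 3-fold 229 and 127, and 105 and 158. By cRPKM fold alone they were 195 and 69 at the 1-cell stage and 213 higher at the 2-cell stage. Genes higher at both stages, lower at both, higher then lower, and lower then higher were 5, 4, 25 and 6 with 50 reads required in each stage, 117, 68, 189 and 142 at 1.5-fold, and 5, 2, 14 and 8 at 3-fold. List medians that left their interval (for the Sm core, which has none, the range of its members) were, with library totals: 1-cell RNA sensing -0.02, ribosomal proteins 0.03, maternal-effect -0.14, oxidative phosphorylation 0.02 and proteasome 0.08, and 2-cell Sm core -0.48 (-0.46 with DESeq2 size factors). With the length trend removed they were Sm core -0.13, cell cycle 0.00, ribosomal proteins 0.03 (1-cell) and -0.23 (2-cell), mitochondrially encoded -0.07, oxidative phosphorylation 0.02 and -0.21, and 1-cell proteasome 0.05. Library totals moved the median of all genes to -0.05 (1-cell) and -0.07 (2-cell). Stage classes (activated, between, cleared) were -0.14, -0.05 and 0.02 at the 1-cell and -0.11, -0.06 and -0.21 at the 2-cell stage with library totals. With the length trend removed, the 1-cell between and cleared classes were 0.00 and 0.04 and the 2-cell classes 0.00, 0.01 and -0.08. With 8-fold classes the 2-cell between and cleared classes were 0.01 and -0.18. No called value changed sign, but list medians near 0 did, such as those of apoptosis genes at the 2-cell stage (0.03, and -0.04 with library totals). The cause of these shifts was not tested.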

Other observations

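Early targets of BMP and Notch signalling, grouped after their values were seen, lay lower with Snrpb at the 2-cell stage in 11 of 14 measured genes (median log2 ratio -0.46, and 0.08 at the 1-cell stage). Of all genes, 50.3% were lower at the 2-cell stage. Because the list was picked on these values, its count supports no direction. Id1, an inhibitor of bHLH transcription factors induced by BMP, had 348 reads with Snrpb, 1304 with Snrpd2, 618 with mCherry and 653 with both at the 2-cell stage. Hes1, the Notch effector, had 1444, 3469, 2293 and 2245. In each gene the Snrpb library was the lowest and the Snrpd2 library the highest of the 4, at 3.24-fold (2.88 to 3.66) and 2.08-fold (1.95 to 2.21). At 5 h after injection Id1 had 51 against 45 reads and Hes1 53 against 74.

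Tacr3, the neurokinin B receptor, was among the genes higher with Snrpb at both stages and is named after its values were seen. It had 19 reads against 0 at the 1-cell stage and 876 against 482 at the 2-cell stage, where mCherry had 910 and the combined library 435, so the Snrpb level was that of the control.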
